A study of Mus musculus with 7 samples.

Results

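Transcription factors of the FOS and JUN families (AP-1) and their partners ATF3 and BATF were described here by histone H3 marks at 8 genes. The marks were called in sorted progenitors of mouse bone marrow that are committed to become monocytes (common monocyte progenitors, cMoPs). The genes were Fos, Fosb, Fosl2, Jun, Junb, Jund, Atf3 and Batf. Every distinct interval that overlapped 1 of these genes or lay within 50 kb of either gene end (mm10) in 5 peak lists was taken, which gave 303 of 105978 intervals. The lists came from CUTAC, an antibody-guided tagmentation assay run without salt so that accessible DNA beside the mark is cut. H3K4me2, found at enhancers as well as promoters, was profiled in 2 DE and 2 WT libraries, all of batch 2. H3K4me3, which is concentrated at active promoters, was profiled in 1 WT library, of batch 1. DE and WT are the labelled variants of a Zeb2 enhancer whose position is given as -165 kb, and the labels do not say what DE stands for. Zeb2 encodes a repressor that binds E-boxes. The labels give no age, strain or number of animals, and nothing says that replicates came from separate animals, so p-values measure only the spread between these libraries.

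AP-1 is a dimer of basic leucine zipper proteins. JUN proteins pair with themselves or with FOS proteins, FOS proteins need a partner, and ATF3 and BATF pair with JUN proteins and alter what the dimer does. The dimers bind the TPA response element and, with ATF partners, the related cyclic AMP response element. Several of the genes are immediate early genes, which kinase cascades switch on within minutes without new protein synthesis, and JUN is known to work with PU.1 in monocyte differentiation.

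Touching or overlapping H3K4me2 intervals of the 4 lists were merged into regions, and any shared base with a library's peak counted as a call. The 8 genes and their flanks held 90 regions. As a check of the labelled cell type, Csf1r, Ly6c2, Irf8, Klf4, Kit, Spi1 and Cebpa had an H3K4me2 peak within 1 kb of a gene end in all 4 lists. Of the defining genes of other lineages, Pax5, Cd3e, Cd8a, Gata1, Cpa3, Fcer1a, Mcpt8, Zbtb46 and Siglech had none in any list. Cd79a was called in DE replicate 1, Cd3d in DE replicate 1 and WT replicate 2, Epor in WT replicate 2 and Klf1 in both DE lists, while the granulocyte genes Elane and Mpo and the receptor gene Flt3 were called in all 4 and S100a8 in both DE lists. Calls in both DE lists and neither WT list, as at Klf1 and S100a8, were found at 0.223% of autosomal protein-coding genes. The lists are of unequal length, with 21968 and 17079 intervals in DE and 32354 and 28152 in WT for H3K4me2, and 6425 for H3K4me3. They give no read totals, so the depth behind each peak is unknown and a missing call does not show that a mark was absent.

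The promoter sequences of 5 members are shown as examples of 3 patterns of calls. The 250 bases before the start of Fos and Junb overlapped H3K4me2 intervals in all 4 lists and also H3K4me3. Those of Jun and Atf3 overlapped H3K4me2 in all 4 lists and no H3K4me3, and those of Jund no interval of any list. The H3K4me3 intervals concerned stood low in their list by -log10 p, at 88.4% for Fos and 97.5% for Junb. The split from Jun and Atf3 thus rests on calls of low rank. The sequences are those of RefSeq for GRCm38.p6, printed along the gene's strand and ending at the base before the annotated start. Capitals mark TGACG or its complement CGTCA, a core shared with the cyclic AMP response element, and TATAAA, the TATA box.
Fos, chr12:85473640-85473889, plus strand: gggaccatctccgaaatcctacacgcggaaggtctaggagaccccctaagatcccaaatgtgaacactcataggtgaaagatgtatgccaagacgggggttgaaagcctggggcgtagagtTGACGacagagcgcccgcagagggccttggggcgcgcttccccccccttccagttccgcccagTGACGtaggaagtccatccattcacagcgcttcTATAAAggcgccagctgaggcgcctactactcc
Junb, chr8:84978749-84978998, minus strand: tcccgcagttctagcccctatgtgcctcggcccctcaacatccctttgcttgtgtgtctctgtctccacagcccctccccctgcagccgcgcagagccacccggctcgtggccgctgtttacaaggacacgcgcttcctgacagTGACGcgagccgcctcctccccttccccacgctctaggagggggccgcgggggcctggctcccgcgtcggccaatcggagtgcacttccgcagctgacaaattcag
Jun, chr4:95052223-95052472, minus strand: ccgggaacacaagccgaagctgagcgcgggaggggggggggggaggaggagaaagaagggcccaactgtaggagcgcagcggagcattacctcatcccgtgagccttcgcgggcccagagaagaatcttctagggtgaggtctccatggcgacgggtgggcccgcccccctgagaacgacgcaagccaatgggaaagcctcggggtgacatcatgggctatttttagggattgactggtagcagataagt
Atf3, chr1:191183334-191183583, minus strand: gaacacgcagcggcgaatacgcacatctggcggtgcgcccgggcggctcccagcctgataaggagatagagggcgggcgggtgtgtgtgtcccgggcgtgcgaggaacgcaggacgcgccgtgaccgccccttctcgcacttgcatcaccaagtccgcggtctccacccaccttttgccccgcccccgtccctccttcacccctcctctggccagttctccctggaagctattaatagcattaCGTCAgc
Jund, chr8:70697489-70697738, plus strand: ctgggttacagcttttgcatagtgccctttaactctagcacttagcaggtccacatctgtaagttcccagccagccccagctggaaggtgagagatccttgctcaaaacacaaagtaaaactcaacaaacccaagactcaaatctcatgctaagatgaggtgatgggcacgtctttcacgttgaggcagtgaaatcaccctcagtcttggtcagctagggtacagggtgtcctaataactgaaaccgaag

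Promoter windows of all 8 members were found in the RefSeq table. In these windows, which reach from 250 bases before to 50 bases after the start, both strands were searched. TGACG was present in Fos, Fosb, Junb, Atf3 and Batf, 5 of the 8, against 23.8% of 17492 promoters of protein-coding genes. Fos held it at -129 and at -66 from the start and Junb at -106, whereas in Atf3 the complement lay at -7. TATAAA was found in Fos at -33 and in Junb at the first base of the annotated transcript, and in 13.3% of all promoters. Neither TGANTCA, a loose form of the TPA response element, nor TGACGTCA, the full cyclic AMP response element (in which TGACG is contained), was present in any member, against 7.08% and 2.34% of all promoters. Near matches to these strings, such as tgacatca in the Jun window, were not counted. CACCTG, an E-box of the kind that ZEB proteins bind, was present in Fosb alone, where its complement lay at -153 and -146, and in 19.3% of all promoters. GC content over the 250 bases was 58.4% in Fos, 66.4% in Junb, 61.2% in Jun, 65.2% in Atf3 and 47.6% in Jund, against a median of 55.2% over all promoters. These matches describe the letters of the windows and no binding was measured.

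All 8 members carried an H3K4me2 peak within 1 kb of a gene end in all 4 lists, against 39.1% of 20665 autosomal protein-coding genes. A region lay over the annotated start of 7 of them, and in 6 it was called in all 4 lists. The share of all genes with a region over the start is not given here, since the 39.1% is for either gene end. Distances below run along the gene from that start, with negative numbers before it. Strength is given as the authors' -log10 p of the strongest summit and its place in the list as the top share by that value, and both hold within a list only. The strongest region outside each gene was taken by the mean of these shares over the lists that called it, and another region may be stronger in a single list.

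Fos (gene ID 14281, chr12:85473890-85477274, plus strand), the founding FOS gene, had its strongest call over its start. This region, chr12:85473407-85474379, reached from -483 to 489 and had a -log10 p of 42.8 and 37.4 in DE replicates 1 and 2, against 36.4 and 62.5 in WT replicates 1 and 2. By rank this was the top 2.09% and 1.59% in DE and the top 3.03% and 2.54% in WT, so that the region was among the strong peaks of every library. WT replicate 1 split it into 3 intervals, and 2 H3K4me3 intervals lay in it, the stronger at a -log10 p of 5.47 and a rank of 88.4%. Just upstream, chr12:85472826-85473049 was called in all 4 lists (-log10 p of 7.47 and 7.46 in DE, against 6.93 and 19.2 in WT). Inside the gene, chr12:85474535-85474713 was called in all 4 (10.5 and 4.54 in DE, 5.82 and 4.97 in WT), and chr12:85475149-85475271 in WT replicate 2 alone, near the foot of its list at 98.1%. All 11 regions of the Fos window were nearer to Fos than to any other gene. The strongest outside the gene was chr12:85487580-85488123, 10.306 kb past its end, at a -log10 p of 18.3 and 16.8 in DE and 26 and 33.0 in WT.

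Fosb (gene ID 14282, chr7:19302696-19310118, minus strand), a FOS gene induced together with Fos, had its strongest call within the gene and not over its start. The region chr7:19308452-19308867, from 1251 to 1666, had a -log10 p of 38.0 and 29.1 in the DE replicates, against 66.8 and 56.0 in the WT replicates. It ranked in the top 3.03% and 3.67% in DE and the top 0.38% and 3.47% in WT. The region over the start, chr7:19310029-19310511, was weaker in each list, with 15.3 and 6.46 in DE and 14.7 and 21.9 in WT. Another region of the gene, chr7:19309502-19309646, was called in all 4 (10.2 and 9.08 in DE, 8.64 and 12.5 in WT). No H3K4me3 interval lay in or within 1 kb of Fosb. The window of Fosb held 27 regions, of which 7 were nearest to Fosb itself. Of those outside the gene, the one with the best mean rank, chr7:19271506-19272579, covered an end of Vasp, the gene of an actin regulator, and carried H3K4me3 (-log10 p of 29.9 and 17.4 in DE, 24.0 and 43.6 in WT).

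Fosl2 (gene ID 14284, chr5:32136472-32157840, plus strand), which encodes FRA-2, had its strongest call upstream of the start. The region chr5:32135313-32136141 ended 331 bp before the gene and had a -log10 p of 49.4 and 32.4 in DE, against 39.1 and 65.2 in WT. Its H3K4me3 interval, at a -log10 p of 15.5 and in the top 18.3% of that list, was the strongest H3K4me3 call in or within 1 kb of any member. Over the annotated start, chr5:32136370-32136767 was called in DE replicate 2 (7.46) and both WT replicates (8.49 and 16.7) but not in DE replicate 1. The intragenic region chr5:32138391-32138748 was called in all 4 (33.2 and 18.9 in DE, 12.2 and 26.7 in WT) and carried H3K4me3. Between these, chr5:32137157-32137318 was called in DE replicate 1 (5.08) and WT replicate 1 (12.7). All 8 regions of the window were nearest to Fosl2.

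Jun (gene ID 16476, chr4:95049036-95052222, minus strand), which encodes c-JUN, had calls of middle strength and no H3K4me3 interval anywhere in its window. The region over its start, chr4:95052083-95052823, from -601 to 139, had a -log10 p of 16.9 and 9.46 in the DE replicates, against 14.0 and 22 in the WT replicates. Its ranks, 19.0% and 39.3% in DE and 23.7% and 23.1% in WT, were further down the lists than those of the region over the start of Fos. Within the gene, chr4:95050437-95051137 was called in all 4 lists (10.9 and 13.3 in DE, 10.6 and 18.7 in WT). The remaining regions of the gene were called in 1 or 2 lists each, namely chr4:95050054-95050147 in WT replicate 1 (9.34), chr4:95051425-95051587 in DE replicate 2 (6.0) and WT replicate 1 (4.89), and chr4:95051644-95051829 in WT replicate 2 (4.98). The one region outside the gene, chr4:95053193-95053460, lay 971 bp upstream and was called in all 4 (5.95 and 12.7 in DE, 7.14 and 26.6 in WT). No other region lay within 50 kb, so the whole Jun landscape stood within about 1 kb of the gene.

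Junb (gene ID 16477, chr8:84976909-84978748, minus strand), a JUN gene that restrains the growth of myeloid cells in mice, had calls on both sides of the gene, within it and over its start, each in all 4 lists. The strongest was chr8:84976215-84976804, 105 bp past its end, at a -log10 p of 24.8 and 16.8 in DE, against 50.9 and 33.7 in WT. The intragenic region chr8:84977409-84978103 had 11.8 and 12.6 in DE and 31.7 and 25.6 in WT, and the region over the start, chr8:84978561-84978984, 13.5 and 8.41 in DE and 17.9 and 20.6 in WT. Upstream, chr8:84979644-84980225 had 21.9 and 13.2 in DE and 16 and 29.4 in WT. H3K4me3 was called at the end, over the start and upstream of Junb, the last 2 near the foot of the H3K4me3 list at 97.5% and 97.6%. The region of the Junb window outside the gene with the best mean rank lay 11.598 kb upstream of Junb, at chr8:84990346-84990654 and 1570 bp from an end of Hook2. It ranked in the top 1.35% and 3.82% in DE and the top 1.29% and 0.987% in WT, with a -log10 p of 48.7 and 28.7 in DE and 47.5 and 82.0 in WT. This region carried no H3K4me3 call.

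Jund (gene ID 16478, chr8:70697739-70700616, plus strand), the most broadly expressed JUN gene, was the member without a call over its annotated start. Its main region, chr8:70698382-70699129, began 643 bp into the gene and had a -log10 p of 16 and 23.4 in DE, against 21.1 and 24.2 in WT. The ranks were 21.3% and 6.95% in DE and 11.3% and 20.5% in WT. Further in, chr8:70699271-70699492 was called in DE replicate 2 (4.05) and both WT replicates (8.0 and 10.4), chr8:70700108-70700271 in WT replicate 2 (4.79), and chr8:70700550-70700797, over the gene's end, in DE replicate 1 (8.0) and WT replicate 2 (8.25). Whether transcription in these cells starts at the annotated base was not tested. H3K4me3 was called at none of these regions. The strongest region outside, chr8:70659283-70660645, covered an end of the peptidase gene Pgpep1 and had 55.4 and 29.5 in DE and 44.7 and 68.4 in WT.

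Atf3 (gene ID 11910, chr1:191170296-191183333, minus strand), a stress-induced gene whose product restrains inflammatory genes in macrophages, had the fewest regions, 4. The region over its start, chr1:191182987-191183555, was called in all 4 lists at 7.07 and 9.66 in DE, against 11.6 and 13.9 in WT. Its ranks were 60.4% and 38.8% in DE and 30.6% and 39.7% in WT. A second, chr1:191182368-191182718, from 615 to 965, was called in DE replicate 1 (16.5) and both WT replicates (20.4 and 20.7), and not in DE replicate 2. In the 3 lists that called it, it was stronger than the region over the start. The strongest region outside the gene, chr1:191224837-191225004, lay 41.504 kb upstream and is described below. No H3K4me3 interval lay in the window.

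Batf (gene ID 53314, chr12:85686720-85709087, plus strand), whose product partners JUN proteins and IRF factors in lymphocytes and dendritic cells, had a region over its start in all 4 lists. It lay at chr12:85686642-85687483 and had 13.2 and 13.7 in DE, against 15.4 and 16.2 in WT. Inside the gene, chr12:85698199-85698475 was called in all 4 (8.59 and 11.3 in DE, 13.7 and 19.98 in WT), as was chr12:85705377-85705836 (14.5 and 7.06 in DE, 9.31 and 6.27 in WT). The H3K4me3 call of Batf, at a -log10 p of 10.2, lay in the first of these, and none lay at the start. The region outside with the best mean rank, chr12:85745867-85746120, was 419 bp from an end of the transporter gene Flvcr2 (7.53 and 7.53 in DE, 9.96 and 13.2 in WT).

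**Figure D1:**
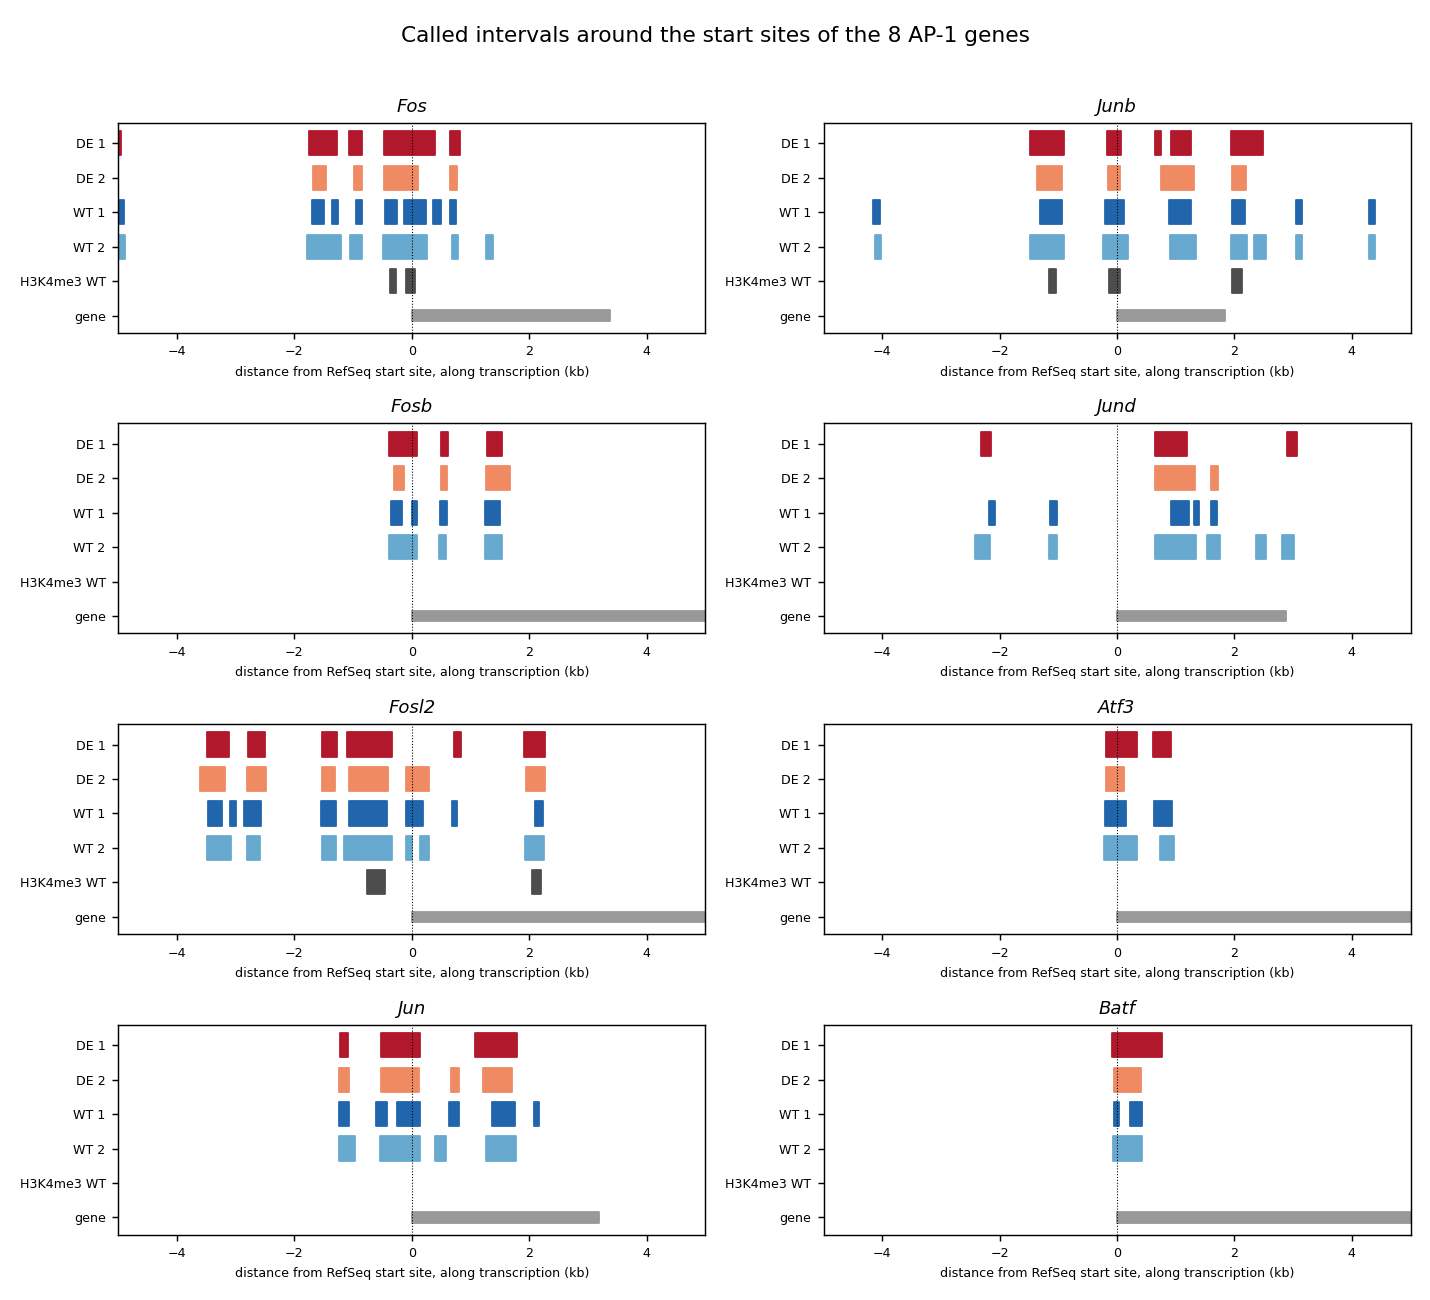
Called intervals of each library from 5 kb before to 5 kb after the annotated start of each gene, drawn along the direction of transcription with the gene as a grey bar. Intervals lie over the start of 7 genes, the exception being Jund, and the H3K4me3 row is filled in this range at Fos, Fosl2 and Junb.

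**Figure D2:**
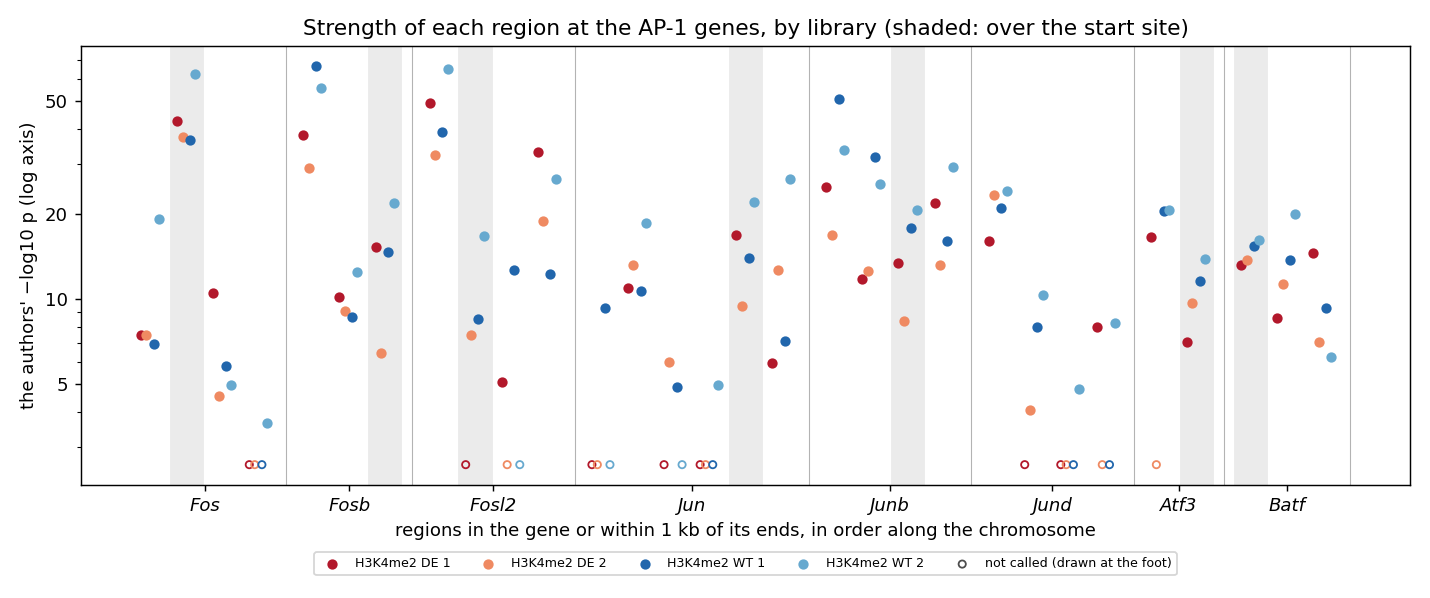
The authors' −log10 p (log axis) of the 30 regions in the genes or within 1 kb of their ends, 1 column per region and 1 point per library, with open circles for libraries that did not call it and shading for regions over the start. The start of Fos, the inside of Fosb and the upstream region of Fosl2 reach 29.1 to 49.4 in the DE libraries and 36.4 to 66.8 in the WT libraries.

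Across the 30 regions in the members or within 1 kb of their ends, 20 were called in all 4 lists, and 43 of all 90 regions were, which is 47.8% against 30.2% of 39395 autosomal regions. That comparison mixes places, since 51.3% of all regions within 1 kb of a gene end and 16.3% of the others were called in all 4. Of the member regions, 57.1% of the 42 within 1 kb of any gene end and 39.6% of the 48 others were. In the windows of the related genes described below, 41.4% to 46.9% of regions were called in all 4 lists. A share of this size was thus not particular to the members. Of the 90 regions, 49 were nearest to an end of the member and 41 to an end of another gene, of which 20 lay in the Fosb and 14 in the Junb window. Regions were dense around most members, with a median of 7.67 per 100 kb of window against 2.77 for all autosomal protein-coding genes. Fosb, with 25.1 per 100 kb, and Junb, with 18.7, stood at densities that 0.286% and 1.56% of genes reached, whereas Atf3, with 3.54, stood at one that 42.2% reached. Densities around the related genes are not given here.

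**Figure D3:**
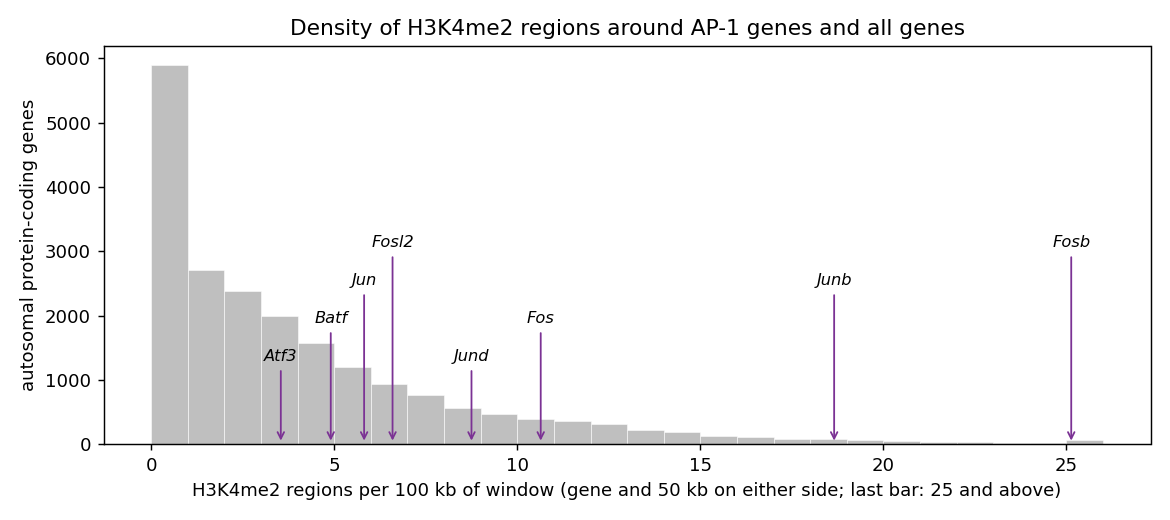
Histogram of H3K4me2 regions per 100 kb of window, the gene and 50 kb on either side, over 20665 autosomal protein-coding genes, with an arrow at each member. Members run from Atf3 at 3.54 to Fosb at 25.1, all above the median of all genes, 2.77.

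The comparison between enhancer variants asked whether calls at these genes differed between DE and WT cMoPs. Fewer regions were called in DE, 59 and 51, than in WT, 73 and 77, with means of 55 ± 5.66 in DE and 75 ± 2.83 in WT (SD, n = 2 each). The difference was -20 regions (exact two-sided permutation p = 0.333, which 2 against 2 libraries cannot go below). The groups did not overlap, and both DE lists were also shorter than both WT lists. With each list limited to its 17079 strongest peaks, the counts were 52 and 51 in DE and 54 and 56 in WT, a difference of -3.5. When a call had to cover at least 50% of the region, the groups overlapped, with 58 and 43 in DE and 56 and 75 in WT (exact permutation p = 0.667). Per 1000 peaks of the list, AP-1 intervals numbered 2.82 and 3.10 in DE and 2.66 and 3.02 in WT, so the groups overlapped (difference 0.124, exact permutation p = 0.667). This value turned on the peaks kept, since both DE values lay above both WT values at a −log10 q of at least 5 (difference 0.799) and below them with lists of equal length (difference -0.234), each at an exact permutation p of 0.333. The covered bases also overlapped, at 22753 and 17759 in DE and 17593 and 24261 in WT, a log2 difference of -0.04 (exact permutation p = 1). This difference was 0.228 with lists of equal length, 0.139 without DE replicate 2 and 0.192 without WT replicate 2, so its sign changed with these choices. Intervals were wider in DE, with a median in the AP-1 windows of 316.5 and 290 bp in DE and 169.5 and 231 bp in WT (exact permutation p = 0.333, again the smallest possible). With lists of equal length the width difference fell to 58.5 bp, against 103 bp, and the groups overlapped (exact permutation p = 0.667). The median width over the whole lists was 249 and 246 bp in DE and 152 and 212 bp in WT, so both DE lists were wider as a whole too.

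By gene, the counts of regions in DE replicates 1 and 2 and then WT replicates 1 and 2 did not overlap at Fosb (16 and 13 in DE, 20 and 19 in WT), Fosl2 (6 and 6 in DE, 7 and 7 in WT), Junb (12 and 11 in DE, 17 and 19 in WT) and Jund (5 and 4 in DE, 7 and 9 in WT). Both DE counts thus lay below both WT counts at 4 of 8 members, as they did at 33.9% of 17644 genes with a region in their window, and both lay above at 0 members and 0.992% of genes. These shares were not matched for the number of regions, whose median was 8.5 for the members and 4 for all autosomal protein-coding genes. The counts overlapped at Fos (10 and 7 in DE, 8 and 11 in WT), Jun (3 and 4 in DE, 5 and 4 in WT), Atf3 (3 and 1 in DE, 3 and 3 in WT) and Batf (4 and 5 in DE, 6 and 5 in WT). With lists of equal length the difference in mean counts, DE minus WT, was -0.5 at Fosb, against -5 with the full lists, -1.5 at Junb, against -6.5, and -1.5 at Jund, against -3.5. It was then -1.5 at Fosl2, -0.5 at Atf3, 1 at Fos and 0.5 at both Jun and Batf. With the full lists it was -1 at each of these genes, so it grew at Fosl2 and changed sign at Fos, Jun and Batf.

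**Figure D4:**
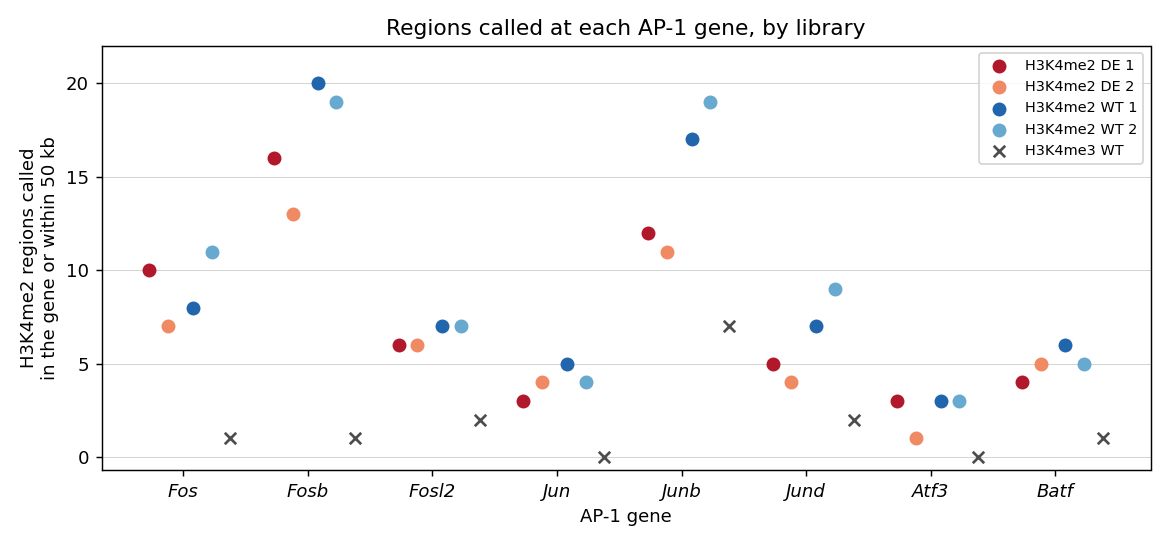
H3K4me2 regions called in each gene or within 50 kb of it, 1 point per H3K4me2 library, with crosses for the regions that also held an H3K4me3 interval in the WT library. Fosb and Junb hold the most, 11 to 20 per library, and at Fosb, Fosl2, Junb and Jund both DE points lie below both WT points.

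A call in both WT lists and in neither DE list was found at 12 of the 90 regions, which is 13.3% against 8.77% of all autosomal regions. For both DE and neither WT list the count was 1, or 1.11% against 1.10% of all regions, and over all autosomes 3.23% of regions called in both DE lists were missing from both WT lists. Read against the regions called in both WT lists, 12 of 64 were missing from both DE lists, 18.8% against 18.3% over all regions, so the members' share lay near the background. Of the 23 such regions in the members or within 1 kb of their ends, 0 were missing. Over all regions within 1 kb of the end of any gene, the share was 11.4%. A rough upper limit for the count of 0, set at 3 counts in 23, is 13.0% and lies above that share. The limit treats regions as independent draws, although they were read from the same libraries, and no confidence level is attached to it. Of the 41 further out, which include regions at the ends of other genes, 29.3% were missing. The sets of 23 and 41 are cut by distance to the member, for which no share of all regions is given. Grouped by the nearest end of any gene, 6 of the 33 regions within 1 kb were missing, or 18.2% against 11.4% over all such regions, and 6 of the 31 beyond 1 kb, or 19.4% against 27.8%. These shares were not tested. When 1 library was left out, the WT pattern was met by 19 without DE replicate 1, 15 without DE replicate 2, 20 without WT replicate 1 and 19 without WT replicate 2, and the DE pattern by 5 without DE replicate 2 and 2 without each of the others. With lists of equal length the counts were 6 for the WT pattern and 3 for the DE pattern.

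None of the 12 regions lay in a member gene or within 1 kb of one. In the window of Junb they numbered 5. Of these, 3 stood around Prdx2, the neighbouring peroxiredoxin gene, at chr8:84970334-84970544 (-log10 p of 7.54 and 6.32 in WT replicates 1 and 2), chr8:84974350-84974450 (6.89 and 11.9) and chr8:84975597-84975702 (8.64 and 13.7), the last 1207 bp from Junb. The others were chr8:84982774-84982911 (3.86 and 6.95), 4026 bp upstream of Junb, and chr8:84985454-84985613 (4.96 and 7.60), towards Hook2. The window of Fosb held 4, of which chr7:19282438-19282613 (5.52 and 6.91) and chr7:19295942-19296085 (17.1 and 15.3) lay 11 and 79 bp from the nearest end of the reticulon gene Rtn2. A further one, chr7:19344974-19345129 (12.1 and 11.3), lay 907 bp from an end of the DNA repair gene Ercc1, and chr7:19325921-19326080 (5.14 and 4.08) 15.803 kb upstream of Fosb.

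Jund had 2 regions of this pattern, and the one at chr8:70696584-70696714 stood 1025 bp upstream of its annotated start (12.3 and 11.4 in WT replicates 1 and 2). The other, chr8:70664134-70664549, was the strongest of the 12 in both WT lists (18.9 and 17.2) and lay 3688 bp from an end of Pgpep1. Atf3 had 1, the upstream region chr1:191224837-191225004 (8.35 and 8.45). Fos, Fosl2, Jun and Batf had 0. The regions ranked between 14.2% and 98.2% in WT replicate 1 and between 31.9% and 96.5% in WT replicate 2, so none was among the strongest peaks of its list. They were narrow, with a median width of 158 bp against 509 bp for the 43 regions called in all 4 lists, although a region called in more lists is a union of more intervals. Those at 84974350 and 84975597, 101 and 106 bp wide, were narrower than the shortest interval of either DE list, 109 bp, against 74 and 91 bp for the WT lists. The part of interval width in these missing calls was not tested. The region with the opposite pattern, chr7:19270648-19271044, lay 810 bp from an end of Vasp in the Fosb window, at a -log10 p of 6.39 and 5.11 in DE replicates 1 and 2.

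**Figure D5:**
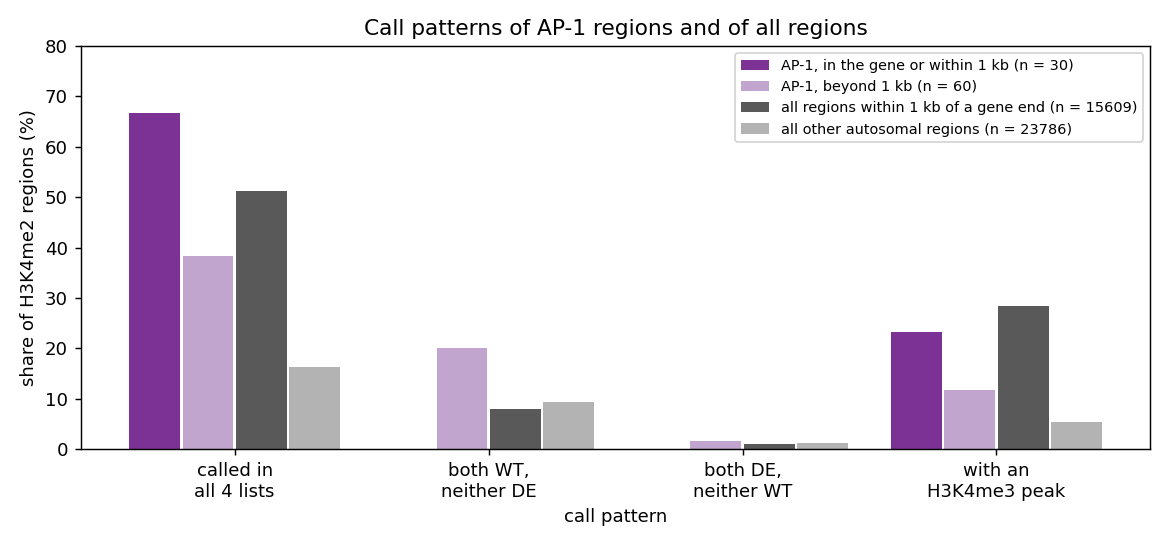
Share of H3K4me2 regions (%) with each call pattern, for the 30 regions in the AP-1 genes or within 1 kb, the 60 further out, the 15609 autosomal regions within 1 kb of any gene end and the 23786 others. The pattern of both WT and neither DE is at 0 in the first set and at 20% in the second. It is at 8.01% of all regions within 1 kb of any gene end and at 9.27% of the others. The AP-1 sets are split by distance to the member, the others by distance to any gene end. Split by any gene end, the AP-1 shares are 14.3% within 1 kb and 12.5% beyond.

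H3K4me3 was set against H3K4me2 at the same genes. Its 17 intervals in the 8 windows all lay in H3K4me2 regions and marked 14 of the 90, which is 15.6% against 14.5% of all autosomal H3K4me2 regions. Within 1 kb of a gene end, 3 of the 8 members, Fos, Fosl2 and Junb, had an H3K4me3 call, against 21.6% of autosomal protein-coding genes. Calls inside a member and beyond 1 kb of its ends lay in Fosl2 and Batf. The remaining marked regions lay towards neighbours, at Vasp in the Fosb window, around Rnaseh2a and at Get3 and Trir in the Junb window, and at Pgpep1 and Lsm4 in the Jund window. The strongest of all 17 was that near Get3, in the top 10.4% of the H3K4me3 list. Because the only H3K4me3 library is of another batch, mark and batch cannot be told apart.

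Related genes were read from 3 lists in the same way, by a peak within 1 kb of a gene end in all 4 H3K4me2 lists, which 39.1% of autosomal genes had. Of 11 other AP-1 and partner basic leucine zipper genes, 7 had one, among them Fosl1, Jdp2 and Atf2. Batf3, a factor of conventional dendritic cells, was called in both WT and neither DE list, a pattern of 3.03% of genes, and the reverse pattern, that of 0.223% of genes, occurred at 0 genes of the 3 lists. Maff was called in all but DE replicate 2, and Batf2 in no list. Of 14 kinases and factors upstream of AP-1, 10 had a call in all 4, among them Mapk14, Map2k1 and Srf, the factor that drives Fos. Mapk8, which encodes JNK1, Map2k4 and Creb1 were called in all but DE replicate 2, the shortest list, and Elk1 in WT replicate 2 alone. Of 12 other immediate early genes, 10 had a call in all 4, while Nfkbiz was called in DE replicate 2 and WT replicate 2 and Nr4a1 in no list. H3K4me3 was called at 3, 5 and 5 genes of these lists. Of the regions in the windows of the first list, 46.9% of 96 were called in all 4 H3K4me2 lists. In the second this was 41.4% of 111 and in the third 43.7% of 135, against 47.8% of 90 for the 8 members. Regions called in both WT lists were missing from both DE lists in 5.26% of 57 in the windows of the first list, 15.2% of 66 of the second and 14.8% of 81 of the third, against 18.8% of 64 for the 8 members, and these shares were not tested against each other.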

How the data were processed

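Of the 7 labelled samples 5 were used. An IgG control and an MDP sample (H3K4me3) were not analysed here. Reads were paired over 150 bp, per the labels' protocols. Tools named in the submitters' processing notes are MACS2 2.2.9.1, Bowtie2, Picard, SAMtools and Trimmomatic, with the build mm10. Their settings, and any control, are not given here. Each list is of 1 library. It holds, as deposited, a score of 10 times the −log10 q, the fold of pileup over background as a ratio, and the −log10 p and −log10 q of each summit. These are the authors' values per peak. Lists reach down to a −log10 q of 1.00 to 1.02. In the header of the DE replicate 1 list the other DE replicate is named, and the series record was followed.

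Entries with the same interval were counted once, by their strongest p. Regions, calls and exact permutation tests were computed in Python 3.11.15 with pandas 2.3.3. The code was tested on simulated data. Genes and starts came from RefSeq tables of GRCm38.p6, the mm10 build. All H3K4me2 libraries are of batch 2. The text names, for each member, the regions in the gene or within 1 kb and the strongest outside it. It also names those called in both lists of DE or WT and in neither list of the other. A few further regions, such as those with H3K4me3, and further genes of the lists, were picked with their values in view. A few genes of the lists are not reported here by name. Members and lists were chosen with earlier results of these data known. Alternatives were lists of equal length, a floor of 5 on the −log10 q, windows of 10 and 100 kb, calls by 50% cover, merging within 500 bp, leaving out each replicate, and the replicate block.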

Additional observations from a re-analysis of the deposited data

How the results depend on the processing

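The lower number of AP-1 regions in DE kept its sign under all 11 alternatives, with a difference of -29.5 to -3.5 against -20. The groups overlapped by 50% cover (-15, exact permutation p = 0.667). Not all alternatives could have turned the sign. The replicate block changes only the test and keeps the difference. Leaving out 1 replicate, which gave -27 to -14, could hardly turn it because the full groups did not overlap. The log2 difference in covered bases, -0.04, became 0.228 with lists of equal length and ran from -0.271 to 0.192 without 1 replicate. The count of both WT and neither DE, 12, was 6 with lists of equal length, 7 with a 10 kb window and 15 to 20 without 1 replicate. The count of both DE and neither WT, 1, was 3 with equal lengths, 0 with a 10 kb window, 2 by 50% cover, 0 with merging within 500 bp and 2 to 5 without 1 replicate. Regions called in all 4 lists, 43, numbered 28 and 71 with windows of 10 and 100 kb, 26 by 50% cover and 44 to 49 without 1 replicate. Regions with H3K4me3, 14, numbered 7 at a −log10 q of at least 5, 8 and 23 with windows of 10 and 100 kb, 2 by 50% cover and 14 to 15 without 1 replicate. The cause of these shifts was not tested, apart from windows and left-out libraries, which hold other sets by construction. Intervals per 1000 peaks, with alternatives chosen after seeing the data, differed by 0.124, by 0.799 at a −log10 q of at least 5, by 0.349 with a 100 kb window, by -0.234 with equal lengths, and by -0.0566 to 0.305 without 1 replicate, while the greater width in DE kept its sign, at 58.5 to 134 bp against 103 bp, and the groups overlapped with equal lengths. Of the 80 values for single genes, 53 were unchanged or moved by less than the larger of the DE and WT SDs. The other 27 moved by at least that much. At Fosl2 the replicates of each group had equal counts, so any change there counted as a move. In the replicate block, which pairs libraries by number, the exact sign-flip permutation p was 0.5 for the -20 regions, the smallest it allows, and 1 for covered bases. No label ties the numbers, and over all autosomal regions the deviations of same-numbered libraries correlated at -0.0472.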
